A study of Mus musculus with 8 samples.

Results

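The Frizzled genes encode the cell surface receptors of Wnt proteins, and all 10 mouse members, Fzd1 to Fzd10, were measured on these arrays. They were chosen by gene symbol alone, as every probe set that the platform annotation gives to a single Frizzled gene. This gave 26 of the 45037 probe sets tested, and each gene was represented by its brightest probe set over all arrays, so that 10 of 18193 genes are described. The arrays held total RNA of R1/E cells, a feeder-free mouse embryonic stem cell (ESC) line grown with LIF, 48 h after transfection. On 4 arrays the cells had been transfected with esiRNA (a mixture of siRNAs cut by enzyme from a long double strand) against Rad21, a core subunit of the cohesin ring. On the other 4 arrays the same line had been transfected with non-targeting esiRNA against luciferase (Luc), and 800 ng esiRNA per well of 80000 cells was used in both. The labels call the arrays biological replicates, numbered 1 to 4 in each group, but do not say whether these were separate cultures, so that p-values measure the spread between these samples, which may be partly technical. The study used the arrays for a global view of expression changes upon cohesin depletion.

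Frizzled receptors are membrane proteins with several membrane-spanning segments and an extracellular cysteine-rich domain that binds the lipid group of Wnt ligands. Together with the co-receptors Lrp5 or Lrp6 they recruit Dishevelled and stabilise beta-catenin, which acts with Tcf/Lef factors in the nucleus, and with other partners they direct planar cell polarity. In mouse ESCs the beta-catenin branch is known to favour self-renewal. By sequence the receptors fall into the subfamilies Fzd1, Fzd2 and Fzd7, Fzd5 and Fzd8, Fzd4, Fzd9 and Fzd10, and Fzd3 and Fzd6, and the results are given in this order.

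Promoters are shown for the members that passed the test and have an entry in the RefSeq promoter table of build GRCm38.p6, which held 6 of the 10 genes (Fzd1, Fzd4, Fzd5, Fzd7, Fzd9 and Fzd10). Each run holds the 250 bases before the annotated start of the gene, 5′ to 3′ on the strand of the gene. Capitals mark matches on either strand to the GC box GGGCGG, bound by Sp and Klf factors, and to the Tcf/Lef core CTTTGA.
Fzd1 promoter, chr5:4758217-4758466, - strand: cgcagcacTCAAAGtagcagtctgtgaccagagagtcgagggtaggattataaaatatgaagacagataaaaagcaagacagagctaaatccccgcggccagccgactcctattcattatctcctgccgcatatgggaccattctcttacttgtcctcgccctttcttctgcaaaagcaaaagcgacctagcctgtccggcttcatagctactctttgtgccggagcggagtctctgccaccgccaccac
Fzd5 promoter, chr1:64737751-64738000, - strand: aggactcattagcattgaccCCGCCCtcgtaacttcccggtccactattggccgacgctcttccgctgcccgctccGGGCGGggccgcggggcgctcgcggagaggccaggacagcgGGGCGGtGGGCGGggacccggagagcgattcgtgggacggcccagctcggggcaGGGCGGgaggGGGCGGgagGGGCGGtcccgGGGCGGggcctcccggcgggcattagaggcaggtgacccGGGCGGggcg
Fzd10 promoter, chr5:128600856-128601105, + strand: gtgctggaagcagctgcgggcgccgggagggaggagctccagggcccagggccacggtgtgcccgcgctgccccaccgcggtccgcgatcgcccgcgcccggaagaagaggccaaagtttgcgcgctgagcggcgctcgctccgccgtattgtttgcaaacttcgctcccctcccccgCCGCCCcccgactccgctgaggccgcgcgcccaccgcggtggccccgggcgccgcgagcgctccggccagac
The promoter of Fzd5, the member that fell, held 9 GC boxes, that of Fzd10 held 1 and that of Fzd1 held 0, and a GC box was present in 32.7% of 32851 promoter windows of the same length. The single capital run in the Fzd1 promoter is a Tcf/Lef core, which 13.8% of all windows hold, and 0 Tcf/Lef cores were found in the other Frizzled promoters of the table. The GC content of these promoters was 51.2% for Fzd1 and 76.4% for both Fzd5 and Fzd10, beside a median of 52.4% over all windows. Among the promoters of members that did not pass the test, Fzd4 held 7 GC boxes, Fzd7 held 6 and Fzd9 held 1. The octamer ATGCAAAT, bound by Oct4, and the nuclear receptor site AAGGTCA, bound by Esrrb, had 0 matches in the 6 promoters, where 1.6% and 4.08% of all windows hold them. These are letter matches in a short window and not measured binding sites.

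Fzd1 is also the Frizzled gene for which the study designed primers for quantitative PCR, shown here to identify the transcript.
Fzd1 forward: tgatccccggcgttgggcta
Fzd1 reverse: agatgccccgttcgccgttg

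The knock-down was seen at the targeted transcript. The brightest Rad21 probe set read 11.69, 11.75, 12.37 and 12.52 in knock-down replicates 1 to 4, against 13.62, 13.42, 13.83 and 13.79 in the Luc control (GCRMA values, log2), a change of -1.58 ± 0.21 (SE, n = 4 per group, limma adjusted p = 0.00222). Changes of -2.59 and -0.98 were measured at its further probe sets (adjusted p = 1.64e-04 and 0.0114). Of 8 ESC markers, 6 fell and 0 rose, where 12.6% of all genes fell and 10.1% rose, and the median change of the list was -0.44. The mean over this list was 13.63 to 13.67 on the knock-down arrays and 14.08 to 14.15 on the Luc arrays, so ESC transcripts read high in the bulk RNA of both groups. Fibroblast markers had means of 2.89 to 3.07 and 2.93 to 2.99, and 5 of the 7 genes, among them Col1a1 and Col1a2, had means under 3 in both groups. Of the others, Thy1 fell (-0.56 ± 0.13, adjusted p = 0.0248), and the collagen gene Col3a1 read 4.69, 4.25, 3.11 and 3.42 in the knock-down against 3.0 to 3.15 in the Luc control, with replicates 1 and 2 high (0.80 ± 0.33, adjusted p = 0.189). Of 7 trophectoderm markers 2 rose, the keratin gene Krt7 (2.83 ± 0.14, adjusted p = 2.81e-05) and Cdx2 (1.10 ± 0.15, adjusted p = 0.00244), and 1 fell, Tfap2c, at all 3 probe sets (-0.66 ± 0.12 at the brightest, adjusted p = 0.00758). Of 8 endoderm markers 0 fell and 1 rose, the endocytic adaptor gene Dab2 (2.06 ± 0.20, adjusted p = 5.42e-04). Of 5 measured mesoderm markers 0 rose and 0 fell, and of 5 neural markers 1 rose and 1 fell. A mean under 4 was found in 7 of the 8 endoderm and 4 of the 5 measured mesoderm markers. Only 1.72% of all genes with such a mean were called, so a rise could be missed. The mesoderm marker brachyury (T), which the study found to rise by quantitative PCR, was not among the measured genes. The means over the trophectoderm and endoderm lists were 7.01 to 7.35 and 3.24 to 3.40 in the knock-down and 6.44 to 6.73 and 3.0 to 3.06 in the control, and the endoderm genes Gata4 and Gata6 read under 3 on every array. The part of other cell types in the Frizzled changes was not tested, and in these bulk samples fewer cells of a type and less RNA per cell cannot be told apart. In earlier results of these data the arrays numbered 1 and 2 had stood apart from those numbered 3 and 4, so changes within each replicate set are given where they differ, although the labels name no batch.

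Upon Rad21 knock-down the Frizzled genes changed in both directions. Fzd1, Fzd8, Fzd10 and Fzd3 rose, Fzd5 fell, and Fzd2, Fzd4, Fzd6, Fzd7 and Fzd9 did not pass the test. Thus 5 of 10 genes were called at an adjusted p under 0.05, beside 22.6% of all genes. With 4 rising and 1 falling, the family stood beside 10.1% of all genes that rose and 12.6% that fell. The share of all genes called was 38.6% where the mean over the arrays was 4 or more and 1.72% below it, and 8 of the 10 Frizzled genes had a mean of 4 or more. Fzd8 reached it only through its knock-down arrays, so the share of calls among these 8 is not set against that of all such genes. The median change of the 10 genes was 0.51 on the log2 scale, against 0.0033 over all genes. The Frizzled median lies between Fzd6 (0.49) and Fzd2 (0.53), which did not pass the test. All genes include 7894 of 18193 with a mean under 4, so the medians cover unlike levels of signal. In 5 Frizzled genes the groups did not overlap, as in 27.8% of all genes. The 10 genes were not picked by their values, but they were proposed with results of these data known.

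**Figure D1:**
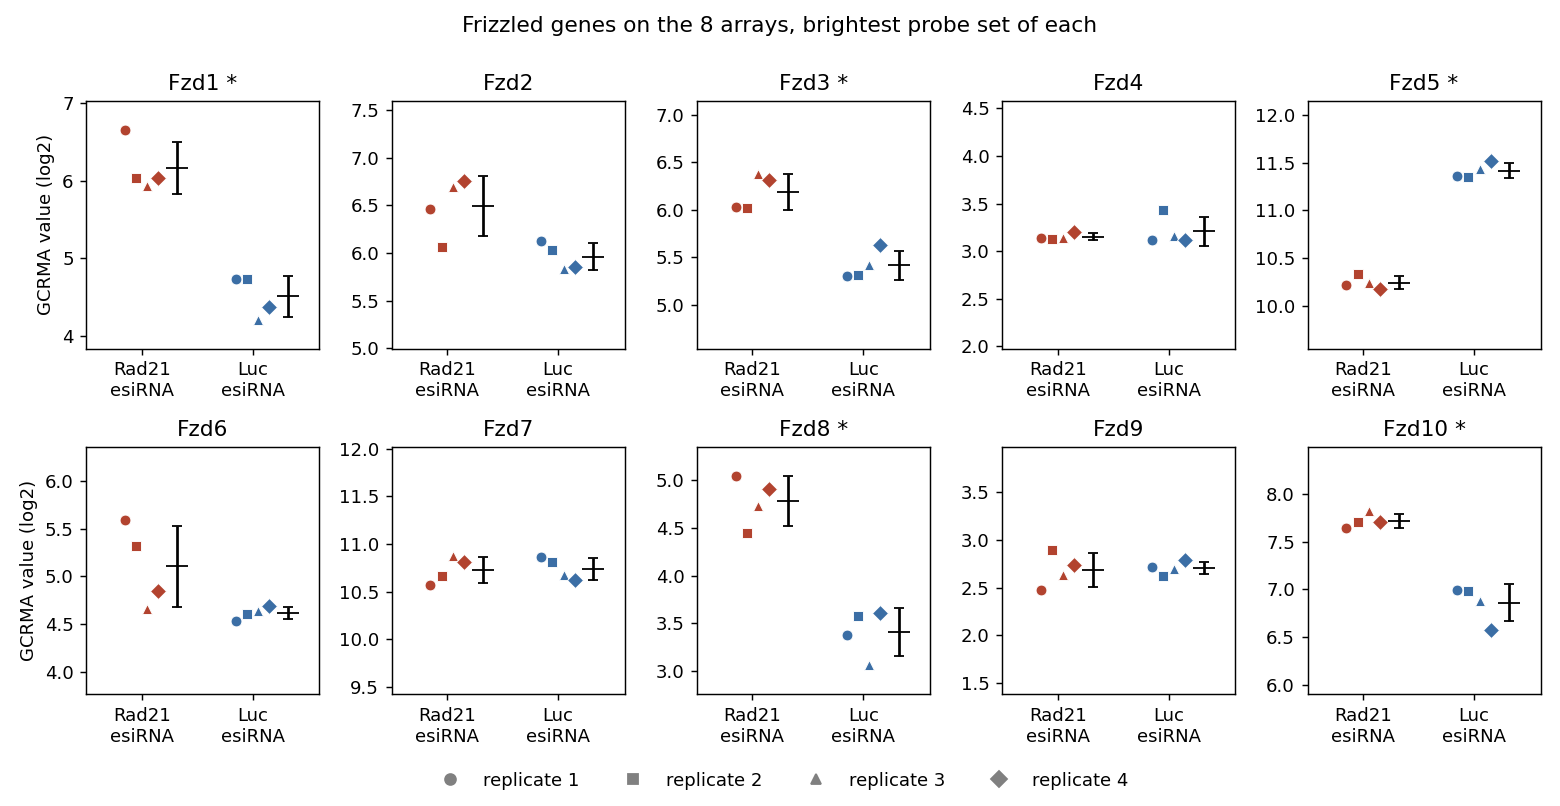
GCRMA values (log2) of the brightest probe set of each Frizzled gene on the 8 arrays, with Rad21 esiRNA left of Luc esiRNA, symbols for replicates, and the group mean ± SD (n = 4) beside the points; each panel has its own axis and an asterisk marks an adjusted p under 0.05. The groups lie apart in Fzd1, Fzd3, Fzd5, Fzd8 and Fzd10, with changes of 1.65, 0.77, -1.17, 1.37 and 0.86, and overlap in the others.

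In the subfamily of Fzd1, Fzd2 and Fzd7, which act together in heart and palate development in the mouse, only the change of Fzd1 passed the test at the brightest probe set. Fzd1 read 6.66, 6.04, 5.93 and 6.03 in knock-down replicates 1 to 4, against 4.73, 4.73, 4.20 and 4.37 in the Luc control. All knock-down arrays lay above all Luc arrays, and replicate 1 was the highest of its group. The level rose 3.15-fold, with a log2 change of 1.65 ± 0.19 (SE, n = 4 per group, limma adjusted p = 0.00123). Replicates 1 and 2 gave 1.62 and replicates 3 and 4 gave 1.69.

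Fzd2 was higher on most knock-down arrays without passing the test. Its brightest probe set read 6.46, 6.06, 6.70 and 6.76 in the knock-down, against 6.13, 6.03, 5.83 and 5.85 in the Luc control. Knock-down replicate 2 lay within the range of the Luc arrays, and replicates 3 and 4 stood highest. The change was 0.53 ± 0.16 (95% interval 0.17 to 0.90, adjusted p = 0.0653), made up of 0.18 for replicates 1 and 2 against 0.89 for replicates 3 and 4, a contrast between sets that missed the threshold (interaction adjusted p = 0.186). Without knock-down replicate 2 the change was 0.68 and passed (adjusted p = 0.00768). A second Fzd2 probe set, which does not have the _s_at suffix of probe sets shared between transcripts, rose by little but evenly (0.17 ± 0.04, adjusted p = 0.0371).

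Fzd7, which is known for its high level in human pluripotent stem cells, gave a bright signal that was alike in both groups. It read 10.57, 10.66, 10.87 and 10.81 in the knock-down and 10.86, 10.81, 10.67 and 10.62 in the Luc control, so that the groups overlapped fully. The change was -0.01 ± 0.08 with a 95% interval of -0.20 to 0.18 (adjusted p = 0.974), and it turned slightly positive (0.011 and 0.016) when the arrays were quantile normalized or centred on bright probe sets. Replicates 1 and 2 gave -0.22 and replicates 3 and 4 gave 0.20, the lowest interaction p of the family (adjusted p = 0.0724), which did not pass the test, as it did in 1.03% of all genes. The changes lay 1.67 apart between Fzd1 and Fzd7, 1.12 between Fzd1 and Fzd2 and 0.55 between Fzd2 and Fzd7. All 3 pairs gave the same result (exact permutation of the 8 arrays, two-sided p = 0.0286, the smallest this design allows, and adjusted p = 0.0381 over the 8 subfamily pairs). The gap between the Fzd1 groups was wider than the spread of Fzd2 or Fzd7 over all arrays. Both pairs with Fzd1 could therefore only give this p, and they add nothing to the call of Fzd1. For Fzd2 and Fzd7 the adjusted p rests on other pairs whose smallest p was fixed in this way, so no difference is read from it.

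The closely related Fzd5 and Fzd8 moved in opposite directions. Fzd5, which is needed for yolk sac vessel formation in the mouse, read 10.22, 10.34, 10.24 and 10.18 in the knock-down, against 11.36, 11.35, 11.43 and 11.52 in the Luc control. The spread within each group was small beside the distance between them. The level fell to 44.3% of that in the control, with a log2 change of -1.17 ± 0.05 (limma adjusted p = 1.78e-05), and it was the only Frizzled gene that fell. The other Fzd5 probe set fell as well (-1.45 ± 0.11, adjusted p = 2.06e-04), with 7.38, 7.04, 7.12 and 7.39 in the knock-down and 8.43, 8.79, 8.75 and 8.77 in the Luc control, so that Fzd5 was the only member called at every probe set.

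Fzd8, whose cysteine-rich domain is a much used model of Wnt binding, read 5.04, 4.44, 4.73 and 4.91 in the knock-down, against 3.38, 3.58, 3.07 and 3.61 in the Luc control. All 4 Luc arrays lay under 4, near the low plateau to which GCRMA pulls dim probe sets, and all knock-down arrays lay above it. The fitted change was 1.37 ± 0.16 (2.59-fold, adjusted p = 0.00131), a size that is not settled because of the dim control. Fzd8 missed the threshold when replicates 3 and 4 were fitted by themselves (1.48, adjusted p = 0.0526). The changes of Fzd8 and Fzd5 differed by 2.55 on the log2 scale. Their groups lay fully apart in opposite directions, so an exact permutation could only give its smallest p (0.0286, adjusted p = 0.0381). The permutation thus adds nothing to the calls of these genes.

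Among Fzd4, Fzd9 and Fzd10 only Fzd10 had a signal clear of the low end of the scale. Fzd10 read 7.65, 7.70, 7.82 and 7.71 in the knock-down, against 6.99, 6.99, 6.88 and 6.58 in the Luc control. The knock-down arrays lay close together above all Luc arrays, of which replicate 4 was the lowest. The rise was 1.82-fold (0.86 ± 0.09, adjusted p = 9.34e-04), where replicates 1 and 2 gave 0.69 and replicates 3 and 4 gave 1.04. The antisense gene Fzd10os, measured by its own probe sets, had means of 2.96 ± 0.26 in the knock-down and 2.74 ± 0.07 in the Luc control at its brighter probe set (SD, n = 4; adjusted p = 0.358) and 2.01 and 2.02 at the other.

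Fzd4, the receptor of Norrin in the retinal vasculature, had group means of 3.15 ± 0.03 in the knock-down and 3.21 ± 0.15 in the Luc control at the brightest of its 3 probe sets (SD, n = 4). Fzd9, with a single probe set, had means of 2.68 ± 0.18 and 2.71 ± 0.07. Their changes of -0.06 (95% interval -0.22 to 0.11) and -0.02 (-0.22 to 0.18) did not pass the test (adjusted p = 0.802 and 0.959), and at such dim values a change of the transcript could be missed. For this reason nothing is read from their differences from Fzd10. These pairs were still among the 8 subfamily pairs adjusted together. Both gave the smallest p of the design (exact permutation, 0.0286), which enters the adjusted p of the other pairs.

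Fzd3 and Fzd6 are known for planar cell polarity, in axon guidance and neural tube closure in the mouse. Fzd3 read 6.03, 6.02, 6.38 and 6.31 in the knock-down, against 5.30, 5.31, 5.42 and 5.63 in the Luc control. The groups did not overlap, and in the knock-down replicates 3 and 4 stood above replicates 1 and 2. The rise was 1.70-fold at this probe set (0.77 ± 0.11, adjusted p = 0.00313), but it was the only called one of 6 Fzd3 probe sets. With the mean of all 6 probe sets the change was 0.20 and did not pass (adjusted p = 0.423).

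The other Fzd3 probe sets with a mean of 4 or more went different ways. The first, of the _s_at kind, read 4.73, 4.75, 6.37 and 6.09 in the knock-down and 4.75, 4.55, 5.29 and 4.86 in the Luc control, so that only knock-down replicates 3 and 4 stood apart (0.62 ± 0.42, adjusted p = 0.496). The next read 4.11, 4.04, 4.42 and 4.11 in the knock-down and 4.01, 4.08, 5.73 and 4.31 in the Luc control, where replicate 3 alone was high (-0.36 ± 0.37, adjusted p = 0.723).

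Fzd6 read 5.59, 5.32, 4.65 and 4.85 in the knock-down, against 4.53, 4.61, 4.64 and 4.69 in the Luc control. Knock-down replicates 1 and 2 were high, whereas replicate 3 lay within the Luc range. Over all arrays the change of 0.49 ± 0.20 (95% interval 0.03 to 0.95) did not pass the test (adjusted p = 0.176). Replicates 1 and 2 gave 0.89 and replicates 3 and 4 gave 0.091 (adjusted p = 0.0138 and 0.558 in each set alone, and interaction adjusted p = 0.103). Without knock-down replicate 3 it was 0.64 (adjusted p = 0.0499). The changes of Fzd3 and Fzd6 differed by 0.28, which did not pass (exact permutation, adjusted p = 0.490).

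**Figure D2:**
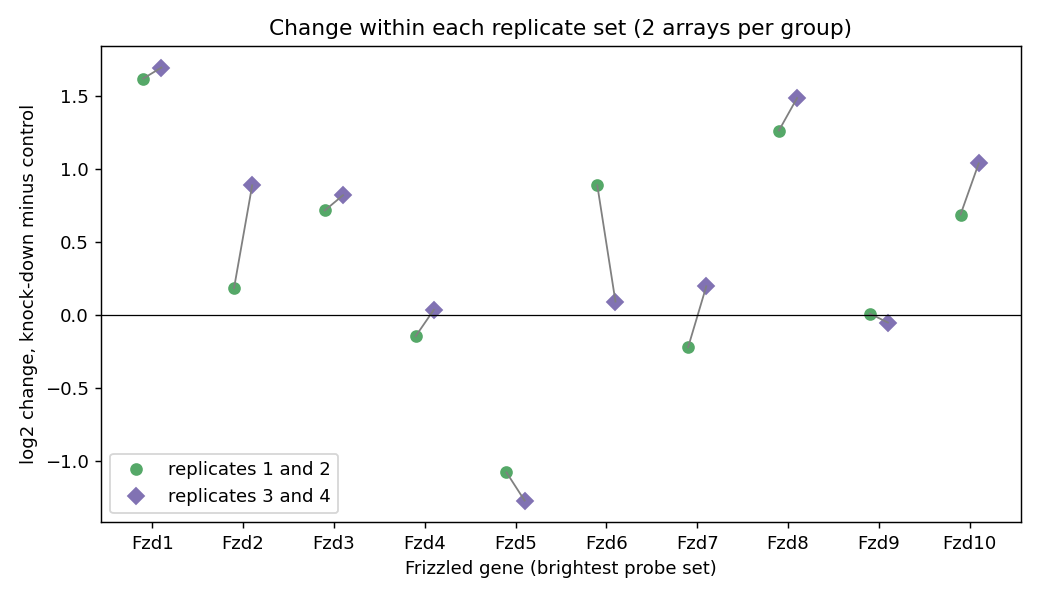
Log2 change (knock-down minus Luc control) of the brightest probe set of each Frizzled gene within replicates 1 and 2 (circles) and within replicates 3 and 4 (diamonds), 2 arrays per group in each. The called genes Fzd1, Fzd3, Fzd5, Fzd8 and Fzd10 kept their direction in both sets, whereas Fzd2 (0.18 and 0.89) and Fzd6 (0.89 and 0.091) differed most in size and Fzd7 (-0.22 and 0.20) in direction.

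Over all 26 Frizzled probe sets, 7 were called, 5 up and 2 down, beside 14.9% of all probe sets. A mean under 4, as in 57.9% of all probe sets, was found in 14, with changes between -0.08 and 0.89, and the called Fzd8 probe set lay above that mean only through its knock-down arrays. The highest of these was the dimmest Fzd2 probe set, which read 2.53, 1.07, 2.29 and 2.12 in the knock-down and 1.16, 1.32, 0.94 and 1.02 in the Luc control (0.89 ± 0.30, adjusted p = 0.105). Fzd1, Fzd8 and Fzd10 each had a second, dim probe set whose change was 0.035, 0.033 and 0.015. Most of the other probe sets were dim, and an exact permutation test over 16 pairs, with a smallest possible p of 0.0286, could hardly pass after adjustment (lowest adjusted p = 0.0653), so nothing is read from it.

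**Figure D3:**
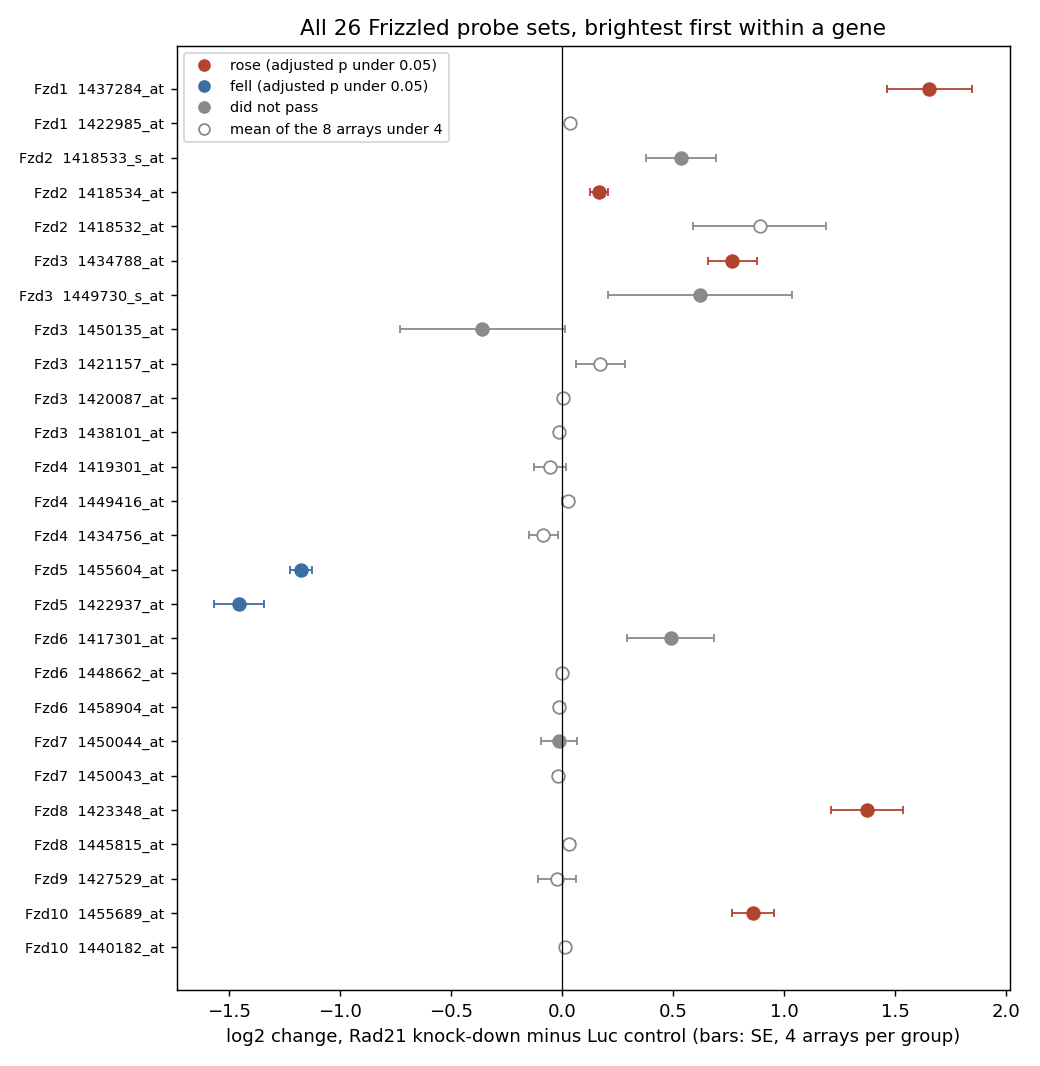
Difference in log2 value, Rad21 knock-down less Luc control (bars show the SE, 4 arrays per group), of the 26 Frizzled probe sets, grouped by gene with the brightest on top; open symbols have a mean under 4 and colours mark calls at an adjusted p under 0.05. Fzd1 (1.65) and the second Fzd5 probe set (-1.45) are the extremes.

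The genes around the receptors were counted in 7 lists, from ligands to target genes, together 75 measured genes of 80 listed. Of these 15 rose, 6 fell and 54 did not pass the test, which is 28.0% called, beside 22.6% of all genes, with a median change of 0.022. A mean under 4, where 1.72% of all genes were called, was found in 33 of the 75. The lists were written with earlier results of these data known. Of 19 Wnt ligands 3 rose and 0 fell (15.8%), and 13 had a mean under 4. Wnt9a read 6.31, 6.07, 5.51 and 5.94 in the knock-down, against 3.82, 3.84, 3.87 and 3.77 in the Luc control (2.13 ± 0.15, adjusted p = 1.44e-04), a size that is not settled with a control under 4. Wnt5a, a ligand of the polarity branch (1.42 ± 0.39, adjusted p = 0.0482), and Wnt8a (0.96 ± 0.23, adjusted p = 0.0302) were called near the threshold, and without single arrays their adjusted p reached 0.123 and 0.0821. Leaving out any of 7 arrays ended the call of Wnt5a, and any of 6 that of Wnt8a. Wnt5a was called at 1 of 4 probe sets and Wnt9a at 1 of 2.

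Among 10 co-receptors and membrane partners 4 rose and 1 fell, where 10.1% of all genes rose and 12.6% fell. A mean under 4 was found in 3 of these 10 genes. The classical co-receptor Lrp6 had means of 7.95 ± 0.13 in the knock-down and 8.03 ± 0.31 in the Luc control (SD, n = 4; adjusted p = 0.893), and Lrp5 stayed under 4 in both. Among the alternative Wnt receptor genes, Ryk had a change of -0.05 ± 0.07 (adjusted p = 0.826), whereas Ror1, a receptor tyrosine kinase for Wnt5a, read 8.55, 8.32, 8.09 and 8.08 in the knock-down, against 5.67, 6.07, 5.61 and 5.13 in the Luc control, so that the groups lay far apart (2.64 ± 0.20, adjusted p = 1.91e-04). Its relative Ror2 fell (-0.56 ± 0.10, adjusted p = 0.00948). The pseudokinase receptor gene Ptk7 (0.75 ± 0.07, adjusted p = 4.71e-04) and Reck, a partner of Wnt7 signalling (0.64 ± 0.08, adjusted p = 0.00133), rose. So did Tspan12, which assists Fzd4 in Norrin signalling (0.75 ± 0.20, adjusted p = 0.0403), but leaving out any of 6 arrays ended its call (adjusted p up to 0.102). For Ror1 1 of 3 probe sets was called and for Ror2 1 of 2.

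Of 11 genes of Frizzled turnover 2 rose and 0 fell (18.2% called, beside 22.6% of all genes), and 7 had a mean under 4. Lgr4, a receptor of R-spondins, which protect Frizzled proteins from degradation, rose by 0.49 ± 0.09 (adjusted p = 0.00839, 1 of 2 probe sets). The R-spondin gene Rspo3 (0.52 ± 0.14, adjusted p = 0.0476) had means under 4 in both groups, and leaving out any of 7 arrays ended its call (adjusted p up to 0.12). Znrf3, a ubiquitin ligase that removes Frizzled proteins from the surface, had a change of 0.020 ± 0.029 (adjusted p = 0.828).

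Of 9 other genes whose proteins carry a Frizzled-type cysteine-rich domain, 2 rose and 2 fell. This is 44.4% called, beside 22.6% of all genes, and 4 of the 9 had a mean under 4. Sfrp1, a secreted binder of Wnt proteins, read 5.92, 5.90, 6.74 and 6.18 in the knock-down, against 7.74, 8.07, 8.13 and 8.25 in the Luc control (-1.86 ± 0.20, adjusted p = 8.96e-04). Its relative Sfrp2 moved the other way, with 7.89, 7.84, 7.95 and 8.23 in the knock-down and 6.61, 6.65, 6.29 and 6.26 in the Luc control (1.52 ± 0.12, adjusted p = 2.62e-04). The groups lay apart for both genes. Sfrp4 fell (-0.56 ± 0.11, adjusted p = 0.0107), with changes of -0.65 and -0.46 in the replicate sets, of which neither passed alone (adjusted p = 0.0728 and 0.0752). The carboxypeptidase gene Cpz rose with both means under 4 (0.58 ± 0.15, adjusted p = 0.0360, highest 0.0925 without single arrays).

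Of 11 genes for Dishevelled and its regulators 1 rose and 2 fell (27.3% called, beside 22.6% of all genes), and 3 had a mean under 4. Dact2 (-1.06 ± 0.13, adjusted p = 0.00143) and Dact1 (-0.84 ± 0.13, adjusted p = 0.00388), which bind Dishevelled, fell, and Ankrd6, the Diversin gene, rose (0.36 ± 0.05, adjusted p = 0.00412). For Dact2 and for Ankrd6 1 of 3 probe sets was called. Dvl1 and Dvl2, the Dishevelled genes with signal, had changes of -0.00037 and -0.07 and did not pass. Of 7 planar polarity genes Prickle1 rose (1.07 ± 0.13, adjusted p = 0.00128) and Celsr3 fell (-0.31 ± 0.08, adjusted p = 0.0388), and the call of Celsr3 ended when any of 6 arrays was left out (adjusted p up to 0.103). Prickle1 was called in replicates 1 and 2 alone but not in replicates 3 and 4 alone (adjusted p = 0.0726). Over all arrays it was called at 1 of 3 probe sets. Of the planar polarity list 28.6% was called, and 1 gene had a mean under 4.

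Of 12 direct targets of beta-catenin and Tcf/Lef 2 rose and 0 fell. This is 16.7% called, beside 22.6% of all genes, and 5 of the 12 had a mean under 4. Lef1, itself a nuclear partner of beta-catenin, read 9.17, 9.11, 8.92 and 8.94 in the knock-down, against 7.73, 7.88, 6.98 and 7.25 in the Luc control (1.58 ± 0.20, adjusted p = 0.00166). Axin2, a feedback inhibitor, read 6.18, 6.33, 6.22 and 6.27 in the knock-down, against 5.87, 5.89, 5.30 and 5.57 in the Luc control (0.60 ± 0.13, adjusted p = 0.0196). All knock-down arrays lay above all Luc arrays for both genes, each at 1 of 2 probe sets called, and Axin2 lost its call when knock-down replicate 2, knock-down replicate 4 or Luc replicate 4 was left out (adjusted p up to 0.0583). The other 10 measured targets did not pass at their brightest probe set. Sp5 read 8.52, 8.34, 8.38 and 8.44 in the knock-down, against 7.90, 8.26, 6.48 and 7.45 in the Luc control. Its groups did not overlap, but the Luc arrays were widely spread (0.90 ± 0.35, 95% interval 0.08 to 1.72, adjusted p = 0.160). Ccnd1 had a change of -0.006 at its brightest probe set, and 1 of its 3 probe sets was called.

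**Figure D4:**
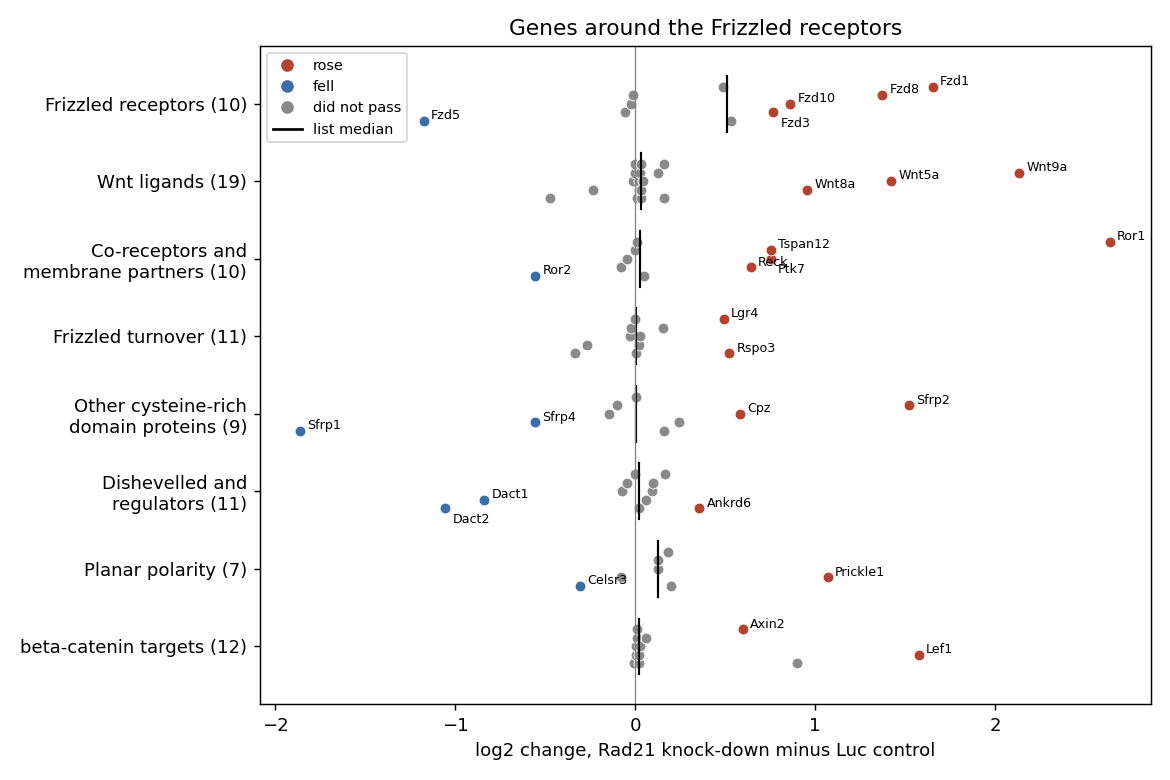
Difference in log2 value, Rad21 knock-down less Luc control, of each measured Frizzled gene and of each measured member of the 7 lists of genes around the receptors, with lines at the medians, numbers measured beside the list names, and names and colours for genes called at an adjusted p under 0.05. Ror1 (2.64) and Wnt9a (2.13) lie farthest to the right and Sfrp1 (-1.86) farthest to the left, and the medians of the lists other than the Frizzled list lie between 0.0022 and 0.12.

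The nearest measured protein-coding gene on either side of each Frizzled gene, in the order of RefSeq GRCm38.p6, was looked up after the values had been seen. Of these 20 genes 6 were called, beside 22.6% of all genes, 2 of the 10 beside called Frizzled genes and 4 of the 10 beside the others. Cdk14, a kinase known to act on the Wnt co-receptor Lrp6, lies beside Fzd1 and rose with it (6.45 ± 0.16 in the knock-down and 4.37 ± 0.14 in the Luc control, SD, n = 4; change 2.08, adjusted p = 2.21e-05). Cthrc1, a secreted protein gene known to stabilise complexes of Wnt and Frizzled, lies beside Fzd6 and rose (7.34 ± 0.68 in the knock-down and 5.26 ± 0.05 in the Luc control; change 2.08, adjusted p = 0.00358). Among the other called neighbours, Wac beside Fzd8 rose (0.37, adjusted p = 0.0117). Prss23 beside Fzd4 (-0.78, adjusted p = 0.0249), Nop58 beside Fzd7 (-0.26, adjusted p = 0.0155) and Nsun5 beside Fzd9 (-0.30, adjusted p = 0.0324) fell. Fzd5, the gene that fell, lies between Ccnyl1 (0.17, adjusted p = 0.0686) and Plekhm3 (-0.12, adjusted p = 0.503), of which neither passed the test.

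As a description, the profiles most like those of the extreme members were found among 10291 other genes with a mean of 4 or more. Over the 8 arrays Fzd1 was most like Sgcb (Pearson r = 0.996), Ptprv (0.993) and Setd7 (0.992). Fzd5 was most like Mylpf (0.998), Btbd11 (0.997) and Fgd1 (0.996). These coefficients rest largely on the distance between the groups, which all arrays of a group share. Sgcb, which encodes a sarcoglycan, had means of 7.57 ± 0.10 in the knock-down and 6.91 ± 0.08 in the Luc control, and Mylpf, a myosin light chain gene, had means of 11.71 ± 0.11 in the knock-down and 13.08 ± 0.05 in the Luc control (SD, n = 4).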

How the data were processed

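The deposited log2 values of 8 arrays were made by the authors with GCRMA, which corrects background by probe GC content, normalizes arrays to a common distribution and summarises probe sets, in Partek 6.4 according to the submitters' processing notes. The common distribution hides a change of the whole transcriptome in 1 direction, and values of dim probe sets are compressed towards a floor. Scanner files were not used here. Of 45101 probe sets 64 controls were left out. The platform annotation gave 1 symbol to 34945, several to 932 and none here to 9160, and 34741 were found in RefSeq by Entrez ID with 0 symbols changed.

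Knock-down minus control was tested per probe set with limma 3.58.1 (lmFit and eBayes, R 4.3.3), two-sided, without block or filter, adjusted by Benjamini-Hochberg across all 45037, and called where the adjusted p was under 0.05. Differences between probe sets or members were tested on their difference per array by exact permutation over the 70 splits of 8 arrays. The limma test was checked on simulated data. Array medians were 3.08 to 3.17, and the number of arrays limits precision. The members and lists were chosen with earlier results of these data known. Named genes are all Frizzled and Rad21 probe sets, up to 5 called members of each list per direction, and the 3 genes most like the extreme members. Uncalled list genes and marker genes that are named, and the neighbours, were chosen after their values were seen. Plots were drawn with matplotlib 3.10.9.

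Alternatives were plain variances per probe set as in the study's methods, limma's trended and robust prior, a replicate block, the replicate sets as block or fitted singly, only probe sets with a mean of 4 or more, quantile normalization, medians of bright probe sets (mean of 8 or more) set equal, array weights, each array left out, adjusted p under 0.01 or 0.1, genes as averages of their probe sets, and no _x_at or _s_at probe sets.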

Additional observations from a re-analysis of the deposited data

Results flagged for a closer look

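Of 58 groups of 4 arrays, taken over the Frizzled and Rad21 probe sets, 5 held an array whose gap to the nearest other array passed Dixon's limit for a single outlying value, where chance gives about 1 in 20. At the brightest Fzd1 probe set, knock-down replicate 1 read 6.66, against 5.93 to 6.04 in the other knock-down arrays, and without it the rise was 1.49. At the second Fzd5 probe set, Luc replicate 1 read 8.43, against 8.75 to 8.79 in the other Luc arrays. The remaining ones were dim Fzd4 probe sets. At the brightest, knock-down replicate 4 read 3.20, against 3.13 to 3.14 in the other knock-down arrays, and Luc replicate 2 read 3.43, against 3.12 to 3.16 in the other Luc arrays. Luc replicate 2 also read 2.74 at a further Fzd4 probe set, against 2.46 to 2.49.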

How the results depend on the processing

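The number of Frizzled genes called stayed at 5 or 6 under all 22 alternatives, and Fzd1, Fzd5 and Fzd10 were called with the same sign in each of theirs. Fzd3 was lost with the mean of all probe sets (0.20) and Fzd8 in replicates 3 and 4 alone (1.48). Fzd2 passed under 7 of 20 alternatives, among them a minimum mean of 4 (adjusted p = 0.0222), which tests fewer probe sets, and Fzd6 under 2. Without _x_at and _s_at probe sets Fzd2 was read at another probe set, with a smaller change of 0.17 (limma adjusted p = 0.0371). Uncalled members turned sign near 0. Fzd7 was 0.20 in replicates 3 and 4 alone, 0.011 with quantile normalization, 0.016 with centring on bright probe sets and 0.086 with array weights. Fzd4 was 0.035 in replicates 3 and 4 alone, and Fzd9 was 0.0091 in replicates 1 and 2 alone and 0.0076 with centring on bright probe sets. Without single arrays they ranged from -0.061 to 0.039 (Fzd7), from -0.085 to 0.020 (Fzd4) and from -0.090 to 0.049 (Fzd9). The cause was not tested. The 21 pathway genes called became 14 to 19 without single arrays, where 14 genes kept their call throughout, and 14 with the plain analysis of variance. The count of all probe sets called was 6697 and ranged from 4592 to 8177, and Rad21 was called throughout. Arrays with the same replicate number deviated together only weakly (r of 0.022, 0.13, 0.073 and 0.13), so the numbers were not taken as pairs. Between knock-down and Luc arrays r was positive within a replicate set (0.022 to 0.20) and negative across the sets (-0.19 to -0.040). The main fit had no block for the sets. With the sets as a block 5 Frizzled genes and 8177 probe sets were called. With the replicate number as a block 5 Frizzled genes, 16 pathway genes and 6224 probe sets were called, and Rad21 changed by -1.58 (adjusted p = 0.00378), and the calls of Ror2 (adjusted p = 0.0613), Rspo3, Tspan12, Wnt5a and Wnt8a were lost.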
